A study of Capra hircus with 30 samples.

Results

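The nuclear genes of oxidative phosphorylation were followed in granulosa cells of the goat ovary. The members were chosen by their symbols alone, as the genes whose RefSeq goat symbol starts with NDUFA, NDUFB, NDUFC, NDUFS, NDUFV, UQCR, COX4 to COX8 or ATP5, together with SDHA, SDHB, SDHC and SDHD. RefSeq's goat annotation of assembly ARS1.2 held 68 such symbols, and 51 of them were among the 20125 features measured. The other 17 were not analysed here. No symbol of that annotation starts with UQCR or with COX4 to COX8, so the core subunits of complexes III and IV were not analysed here. Whether features without an NCBI gene number hold some of them is not known.

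The samples were 30 libraries of total RNA from granulosa cells, the somatic cells around the oocyte, of Ji'ning grey goats. High fertility goats (litters of 3 or more in the methods, more than 3 in the labels) gave the groups HLG from large, HMG from medium and HSG from small follicles, and low fertility goats (2 or fewer in the methods, fewer than 2 in the labels) gave LLG, LMG and LSG in the same order of size. Each group had 5 libraries, named here by the group and the number in its label (5, 7, 8, 9 or 10). No treatment or age is given, and per the methods follicles were collected from 15 goats per class and samples of 10 to 20 granulosa cells were made for each size, without a statement of which goats gave which sample, so the libraries of a group need not come from different goats and the p-values measure the spread between libraries.

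Oxidative phosphorylation takes place at the inner mitochondrial membrane. Complex I (the NDUF subunits) and complex II (the SDH subunits, which also belong to the citric acid cycle) pass electrons to ubiquinone. Complexes III and IV carry them on to oxygen, and complex V, the ATP synthase built from ATP5 subunits, uses the proton gradient to make ATP. Each complex needs its subunits together, and the genes are regarded as active in nearly all cells that respire. Granulosa cells are known for a strong use of glycolysis and pass pyruvate to the oocyte.

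The values are FPKM, fragment numbers scaled by transcript length and by the mapped fragments of the library, so levels are set per length. A value of 0 in these files is not evidence of a silent gene, because genes that most cells use were also listed at 0 in most libraries. Fewer cells of a type and less RNA per cell cannot be told apart in such samples. Between 301 features (LLG-7) and 9256 (LMG-9) were above 0 in a library. Of 10 granulosa cell genes examined, 9 were measured and a library had a median of 2 of them above 0, with a maximum of 4. INHBA, an activin subunit, was above 0 in 14 libraries, CYP19A1, the aromatase, in 10 and FSHR, the receptor of follicle-stimulating hormone, in 1, and 7 libraries (HLG-7, LLG-7, LLG-10, HMG-8, LMG-7, LSG-8 and LSG-9) had no granulosa gene above 0. Read totals were not used here. In genes with a span of 900 to 1000 bp the lowest value above 0 was between 0.02 and 0.12 FPKM in the libraries that had one, which shows how small the reported values can be, and no counting intervals can be given.

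The genes of oxidative phosphorylation were above 0 in few libraries. A member was above 0 in a median of 4 of 30 libraries, with a range of 1 to 19. Of the 1530 values of members, 263 (17.2%) were above 0, whereas 23.9% of the values of all 17946 features with an NCBI gene number were. When a member was above 0 its value was usually low. The median of the values above 0 was 0.49 FPKM, 132 of the 263 (50.2%) were under 0.5 FPKM, 89 were at 1 FPKM or more and 12 at 10 FPKM or more. The whole set of NCBI features was similar in this respect, with a median of 0.52 FPKM and 48.9% under 0.5 FPKM. The map of members by library shows this scatter.

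**Figure D1:**
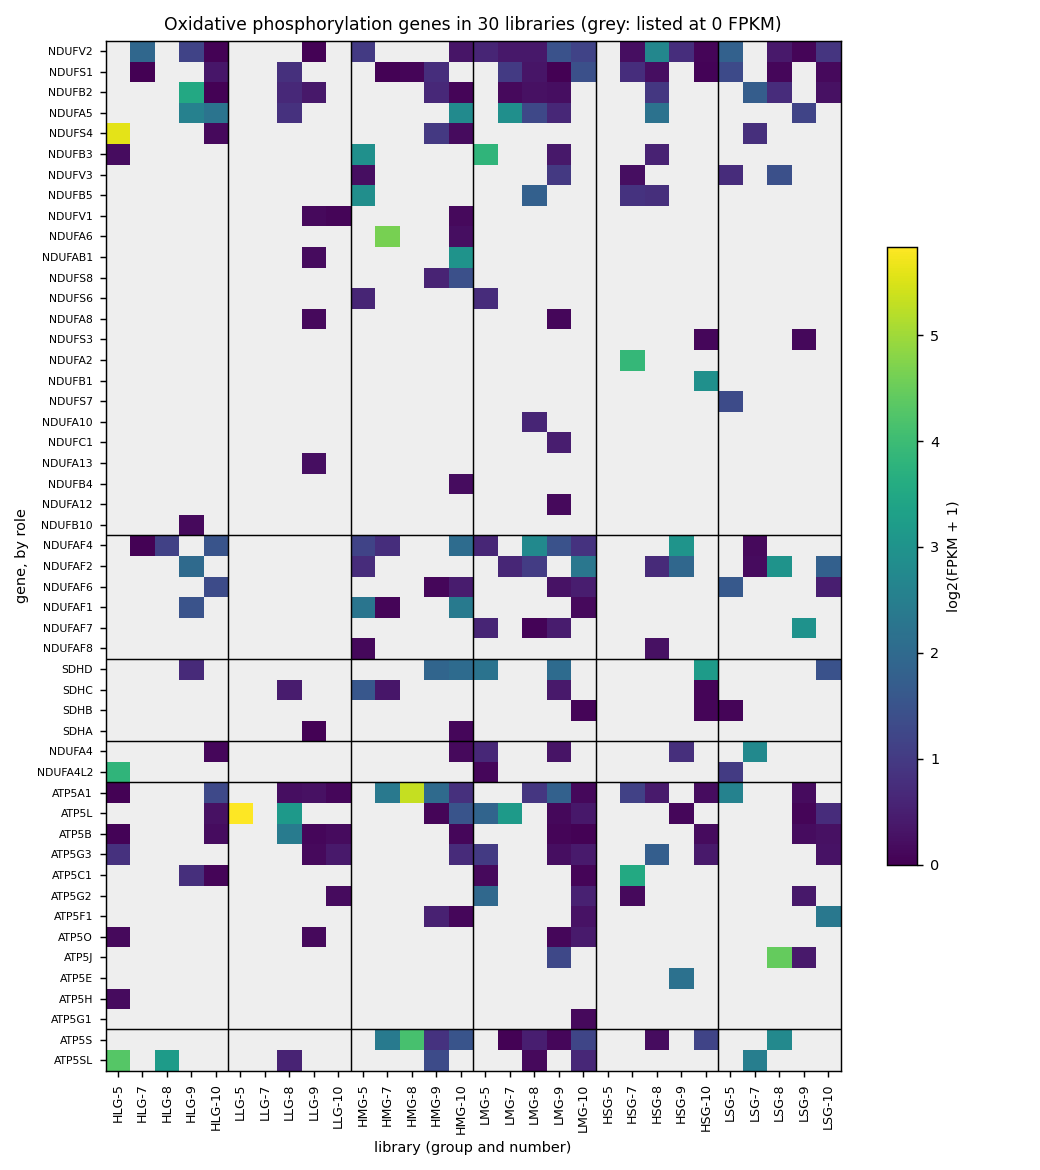
Level of 50 of the genes (vertical axis, grouped by role from complex I at the top to ATP5S and ATP5SL at the bottom) in each of the 30 libraries (horizontal axis, in 6 groups of 5) as log2(FPKM + 1), with grey for values listed at 0. Most cells are grey, 258 of 1500 are coloured, and the columns of LLG-7 and HSG-5 have no coloured cell.

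The 25 complex I subunits were above 0 in a median of 2 libraries and in 14.0% of their values. Among them NDUFV2, a flavoprotein subunit that carries an iron-sulfur cluster, was above 0 in 19 libraries, the highest number of any member. NDUFS1, the largest subunit, was above 0 in 16, NDUFB2 in 13 and NDUFA5 in 9. Their levels were mostly low. NDUFS1 ranged from 0.01 to 1.68 FPKM where it was above 0.

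NDUFV2 was listed above 0 in all 5 LMG libraries, at 0.51, 0.30, 0.29, 1.78 and 1.24 FPKM in LMG-5, LMG-7, LMG-8, LMG-9 and LMG-10. It was the only member above 0 in every library of a group. In HMG it was above 0 in 2 libraries, HMG-5 at 0.98 and HMG-10 at 0.25 FPKM. The LMG and HMG values overlap, since HMG-5 lies within the LMG range. In small follicles it was above 0 in 4 HSG libraries, at 0.17, 5.51, 0.71 and 0.05 FPKM (HSG-7 to HSG-10), and in 4 LSG libraries, at 2.53, 0.32, 0.05 and 0.88 FPKM (LSG-5, LSG-8, LSG-9 and LSG-10). In large follicles it was above 0 in HLG-7 (2.87 FPKM), HLG-9 (1.26 FPKM), HLG-10 (0.02 FPKM) and LLG-9 (0.02 FPKM). No group stood apart in this gene, and each range of values includes or comes close to 0.

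NDUFB2, a small membrane subunit, had 1 value of 10 FPKM or more, 10.57 FPKM in HLG-9, and its other 12 values above 0 lay between 0.02 and 2.28 FPKM. NDUFA5 had 9 values above 0, from 0.57 to 6.51 FPKM, and all of them were over 0.5 FPKM. Of its 9 libraries 3 were LMG, at 6.51 FPKM in LMG-7, 1.39 in LMG-8 and 0.57 in LMG-9, and the rest were spread over the other 5 groups. NDUFS4, a subunit needed for stable complex I, was above 0 in 5 libraries, and HLG-5 held nearly all of its signal. It overlaps another gene in the reference, so its values are uncertain. It was at 47.72 FPKM in HLG-5 and at 0.10, 0.96, 0.13 and 0.72 FPKM in HLG-10, HMG-9, HMG-10 and LSG-7.

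The same pattern of 1 high library among many at 0 was seen in other complex I subunits. NDUFA6 was at 23.73 FPKM in HMG-7 and 0.17 in HMG-10, and at 0 elsewhere. NDUFB3 was at 13.04 FPKM in LMG-5 and 6.60 in HMG-5, and at 0.15 to 0.48 in 3 more libraries. NDUFA2, which overlaps TMCO6, was above 0 in HSG-7 only, at 13.75 FPKM. NDUFV1, a core subunit that takes part in electron transfer, never reached 0.5 FPKM and was above 0 in 3 libraries at 0.05 to 0.10 FPKM. The 9 complex I subunits above 0 in 1 library were NDUFA2, NDUFA10, NDUFA12, NDUFA13, NDUFB1, NDUFB4, NDUFB10, NDUFC1 and NDUFS7.

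The 6 complex I assembly factors, which help to build the complex and are not part of it, were above 0 in a median of 6 libraries and in 22.2% of their values. NDUFAF4 was above 0 in 12 libraries and NDUFAF2 in 10. NDUFAF4 was above 0 in 7 medium follicle libraries (HMG-5 1.24, HMG-7 0.69, HMG-10 3.17, LMG-5 0.54, LMG-8 5.84, LMG-9 1.76 and LMG-10 0.82 FPKM). In large follicles it was above 0 in 3 (HLG-7 0.03, HLG-8 1.17 and HLG-10 1.86 FPKM) and in small ones in 2 (HSG-9 7.10 and LSG-7 0.10 FPKM). Its highest value was thus in a small follicle library, and no LLG library had a value above 0. NDUFAF2 had its highest values in LSG-8 (7.04 FPKM) and LMG-10 (3.99 FPKM), and it overlaps another gene in the reference, so its values are uncertain. Among the rest, NDUFAF6 was above 0 in 7 libraries (highest 2.09 FPKM in LSG-5) and NDUFAF1, which overlaps 2 other genes, in 5 (highest 4.2 FPKM in HMG-10).

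The 4 complex II subunits were above 0 in a median of 4 libraries and in 14.2% of their values, rarely together. SDHD, which anchors the complex in the membrane together with SDHC, was above 0 in 7 libraries, at 0.63 FPKM in HLG-9, 2.76 in HMG-9, 3.11 in HMG-10, 3.70 in LMG-5, 3.09 in LMG-9, 8.19 in HSG-10 and 1.77 in LSG-10. It was at 0 in all 5 LLG libraries. SDHC was above 0 in 5, at 0.36 FPKM in LLG-8, 1.99 in HMG-5, 0.27 in HMG-7, 0.32 in LMG-9 and 0.06 in HSG-10. The catalytic part was lower still. SDHB, the iron-sulfur subunit, was above 0 in LMG-10, HSG-10 and LSG-5 at 0.05, 0.06 and 0.06 FPKM, and SDHA, the flavoprotein that oxidises succinate, in LLG-9 and HMG-10 at 0.03 and 0.07 FPKM. SDHA and SDHB were above 0 together in 0 libraries, and SDHC and SDHD in 2. No library had all 4 subunits above 0, and HSG-10 had 3. SDHD overlaps TIMM8B in the reference, and TIMM8B was above 0 in 2 of the 7 libraries of SDHD.

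NDUFA4 and its relative NDUFA4L2, which are named for complex I but are associated with complex IV, were above 0 in 6 and 3 libraries. NDUFA4 was at 5.81 FPKM in LSG-7 and at 0.08 to 0.72 FPKM in the other 5. NDUFA4L2, known to rise when oxygen is low, was at 13.06 FPKM in HLG-5, 1.01 in LSG-5 and 0.07 in LMG-5. LMG-5 was the only library with both genes above 0. NDUFA4L2 overlaps SHMT2, which was above 0 in 1 of these 3 libraries.

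The 12 subunits of complex V were above 0 in a median of 4.5 libraries and in 20.6% of their values. ATP5A1 and ATP5B, the alpha and beta subunits that form the catalytic head, were above 0 in 17 and 11 libraries. ATP5L, subunit g of the membrane part, was above 0 in 12, and ATP5G3, which encodes the c subunit of the rotor, in 10. ATP5G1 and ATP5G2, which encode the same c subunit, were above 0 in 1 library (LMG-10, 0.10 FPKM) and in 5 (up to 2.92 FPKM in LMG-5). ATP5E, ATP5H and ATP5G1 were above 0 in 1 library each.

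ATP5A1 reached its highest value in HMG-8. In HMG it was at 4.15, 38.85, 3.03 and 0.75 FPKM in HMG-7, HMG-8, HMG-9 and HMG-10 and at 0 in HMG-5. In LMG it was at 0.91, 2.50 and 0.09 FPKM in LMG-8, LMG-9 and LMG-10 and at 0 in LMG-5 and LMG-7. These groups overlap, although 3 of the HMG values lie above every LMG value. In large follicles ATP5A1 was at 0.03 FPKM in HLG-5, 1.46 in HLG-10, 0.16 in LLG-8, 0.19 in LLG-9 and 0.08 in LLG-10. In small follicles it was at 1.18 FPKM in HSG-7, 0.33 in HSG-8, 0.14 in HSG-10, 5.02 in LSG-5 and 0.12 in LSG-9. Thus all groups had libraries at 0, and HMG-8 alone held 65.9% of the signal of this gene.

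ATP5B, the partner of ATP5A1 in the catalytic head, was low in most of its libraries. It was at 4.36 FPKM in LLG-8, and its other 10 values above 0 lay between 0.03 and 0.20 FPKM. Of its 11 libraries 10 also had ATP5A1 above 0, which is 90.9% of the libraries of ATP5B and 58.8% of those of ATP5A1. ATP5B and ATP5G3 shared 8 libraries (72.7% of those of ATP5B and 80% of those of ATP5G3). In HMG-8, where ATP5A1 was at 38.85 FPKM, ATP5B was listed at 0.

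ATP5L was at 56.10 FPKM in LLG-5, the highest value of all members, and it was the only member above 0 in that library. It was at 7.82 FPKM in LLG-8 and at 0 in the other 3 LLG libraries, while in HLG it was at 0.19 FPKM in HLG-10 and at 0 in the other 4. In medium follicles it was at 0.06 and 1.84 FPKM in HMG-9 and HMG-10 and at 2.66, 8.08, 0.09 and 0.29 FPKM in LMG-5, LMG-7, LMG-9 and LMG-10. The HMG values lie within the LMG range. In small follicles it did not exceed 0.68 FPKM (LSG-10). Other high single values in complex V were 20.94 FPKM of ATP5J (factor 6 of the stalk) in LSG-8 and 10.62 FPKM of ATP5C1 (the gamma subunit of the central shaft) in HSG-7. ATP5J overlaps GABPA, a gene above 0 in 14 libraries, of which 1 was among the 3 of ATP5J.

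ATP5S and ATP5SL carry ATP5 in their symbols but are not core subunits of the ATP synthase. ATP5S is known as coupling factor B, and ATP5SL is linked to the assembly of complex I. ATP5S was above 0 in 11 libraries. It was at 4.19, 16.48, 0.81 and 1.88 FPKM in HMG-7 to HMG-10 and at 0 in HMG-5, and at 0.03, 0.41, 0.07 and 1.34 FPKM in LMG-7 to LMG-10 and at 0 in LMG-5. In small follicles it was at 0.14 and 1.29 FPKM in HSG-8 and HSG-10 and at 5.72 in LSG-8. None of the 10 libraries from large follicles had it above 0, whereas 8 of 10 medium and 3 of 10 small ones were above 0. ATP5S overlaps CDKL1 in the reference, and CDKL1 was above 0 in 8 of the 11 libraries of ATP5S. Strand of the library is not stated, so the reads of these genes may not be separated. ATP5SL was at 18.67 and 8.24 FPKM in HLG-5 and HLG-8, at 0.49 in LLG-8, at 1.53 in HMG-9, at 0.11 and 0.57 in LMG-8 and LMG-10 and at 4.63 in LSG-7, and it was at 0 in HSG.

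**Figure D2:**
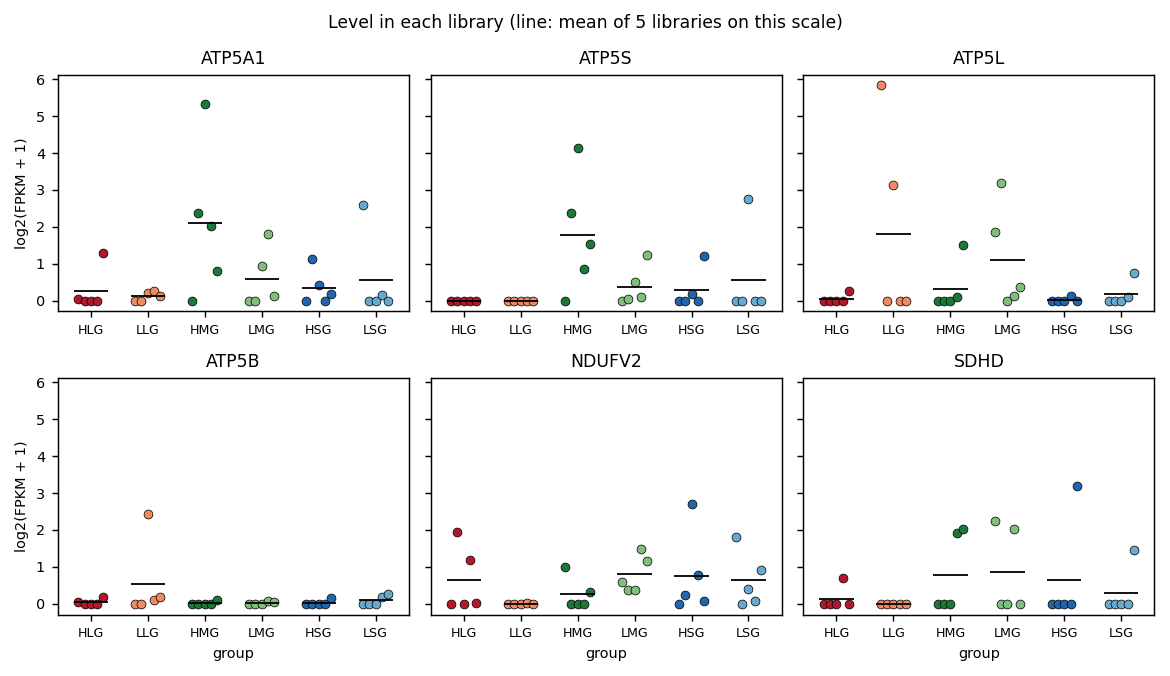
Level of ATP5A1, ATP5S, ATP5L, ATP5B, NDUFV2 and SDHD (one panel each) as log2(FPKM + 1) on the vertical axis, with a point for each library and a line for the mean of the 5 libraries of each group on the horizontal axis. ATP5S is at 0 in all 10 large follicle libraries and ATP5L is highest in LLG-5, at 56.10 FPKM, while points of each group overlap those of others in all 6 genes.

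The number of members above 0 varied widely between the libraries of most groups. LMG had 14.4 ± 6.19 members above 0 and HMG 10.6 ± 7.09 (SD, n = 5 each). LSG had 8.2 ± 1.79, HSG 7.4 ± 4.77, HLG 6.8 ± 4.21 and LLG 5.2 ± 4.66 (SD, n = 5 each). Neighbours in this order differ by less than the larger SD of the pair. LMG-9 had 23 members above 0 and HMG-10 had 22, the most of all libraries, and LLG-7 and HSG-5 had 0. These 2 libraries also had the fewest features above 0, with 301 and 719. Without them the means of LLG and HSG were 6.5 and 9.25 members. Counting the members above 0 at least once in a group gave 35 in LMG, 31 in HMG, 26 in HSG, 26 in LSG, 22 in HLG and 18 in LLG.

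The order of the groups followed that of all features. The share of NCBI features above 0 was 38.8% in LMG, 28.0% in LSG, 26.7% in HMG, 21.7% in HSG, 17.8% in HLG and 10.3% in LLG, and the share of members was 28.2%, 16.1%, 20.8%, 14.5%, 13.3% and 10.2% (means of 5 libraries). HMG and LSG swap places between both orders. Over the 30 libraries the number of members and the number of NCBI features above 0 had a Spearman rho of 0.760, a description of libraries whose read depth was not compared here. The members' share was below that of all NCBI features in 23 of 30 libraries.

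The summed level ran in another order. The FPKM of all members together averaged 30.8 ± 16.2 in HMG, 25.1 ± 31.9 in HLG, 17.0 ± 11.1 in LSG, 16.6 ± 5.65 in LMG, 14.9 ± 9.83 in HSG and 14.7 ± 24 in LLG (SD, n = 5 each). Thus LMG had the most members above 0 and a lower sum than HMG, and none of these differences exceeds the larger SD of the pair. The mean of HLG was 11.2 without HLG-5, and that of LLG was 4.34 without LLG-5. Single genes set many of these sums. ATP5L made up 100% of the sum in LLG-5, NDUFV2 98.6% in HLG-7, NDUFA6 71.6% in HMG-7 and ATP5A1 70.2% in HMG-8. The member with the highest value held between 21.0% (SDHD in LMG-9) and 100% of the sum of its library.

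No library held a complete set of subunits. The most complex I subunits above 0 in a library were 10 of 25 (HMG-10), and the most complex V subunits 9 of 12 (LMG-10). A library with at least 1 complex I subunit was the rule, and 4 libraries had none, while 17 libraries had no complex II subunit and 6 no complex V subunit.

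The share of values above 0 was set beside that of other gene groups. Cytosolic ribosomal protein genes, of which 80 were in the table, were above 0 in 29.9% of their values and in a median of 9 libraries. For 86 neurotransmitter receptor genes the numbers were 24.6% and 6 libraries. The members, at 17.2% and 4 libraries, were below both groups, and this difference was not tested. The filter of the later test, more than 0.5 FPKM in at least 5 libraries, was passed by 11 of 51 members (21.6%), 36 of 80 ribosomal genes (45.0%), 30 of 86 receptor genes (34.9%) and 29.8% of the NCBI features.

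**Figure D3:**
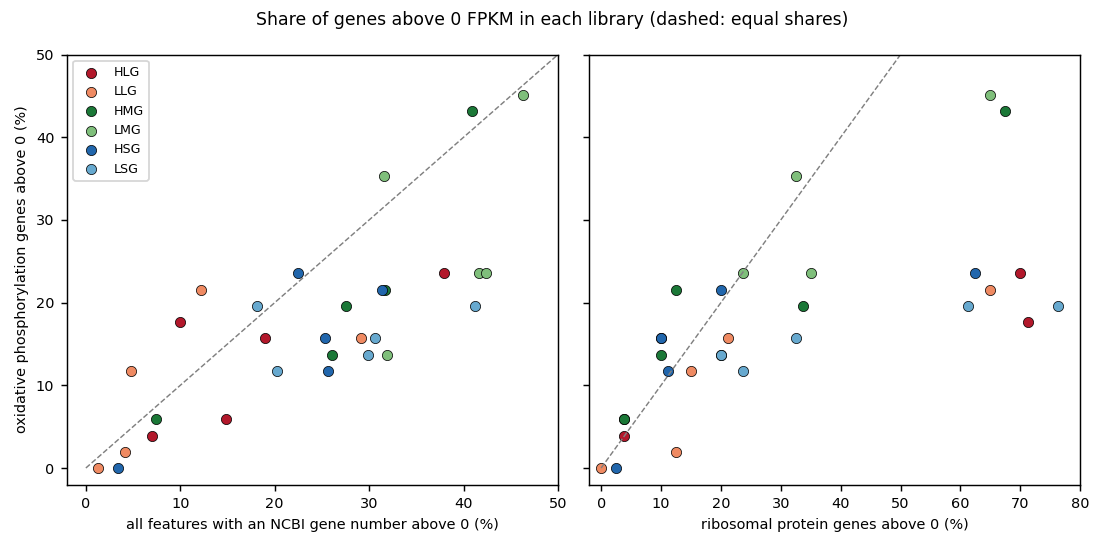
Percent of the 51 oxidative phosphorylation genes above 0 FPKM in each library (vertical axis) against the percent of all features with an NCBI gene number (left) and of the 80 ribosomal protein genes (right), with a point per library coloured by group and a dashed line of equal shares. In the left panel 23 of 30 points lie below the line, and in the right panel 8 points stand at a ribosomal share of 61.25% or more, apart from the other 22 at 35% or less.

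Gene span differed between these groups, but its order was not that of their shares. The members had a median span of 8867 bp in the ARS1.2 annotation, the NCBI features 18976 bp, the receptor genes 44196 bp and the ribosomal genes 3596.5 bp. The ribosomal genes thus had the shortest span and the highest share of values above 0 (29.9%), and the members the lowest share (17.2%). Across genes, span and number of libraries above 0 had a Spearman rho of 0.335 in the 51 members and of 0.378 in the 17945 NCBI features with an entry, as a description over genes that share the same libraries. Within classes of span, the 11 members under 5 kb were above 0 in 7.58% of their values against 14.8% of all NCBI features in the class. The 17 members of 5 to 10 kb were at 19.6% against 18.4%, the 12 of 10 to 20 kb at 17.8% against 21.5%, and the 9 of 20 to 50 kb at 21.9% against 26.2%. Over 50 kb, where NDUFS4 and NDUFAF2 are the only members, it was 25% against 33.4%. Members were thus below the features of similar span in 4 of 5 classes, and these differences were not tested.

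**Figure D4:**
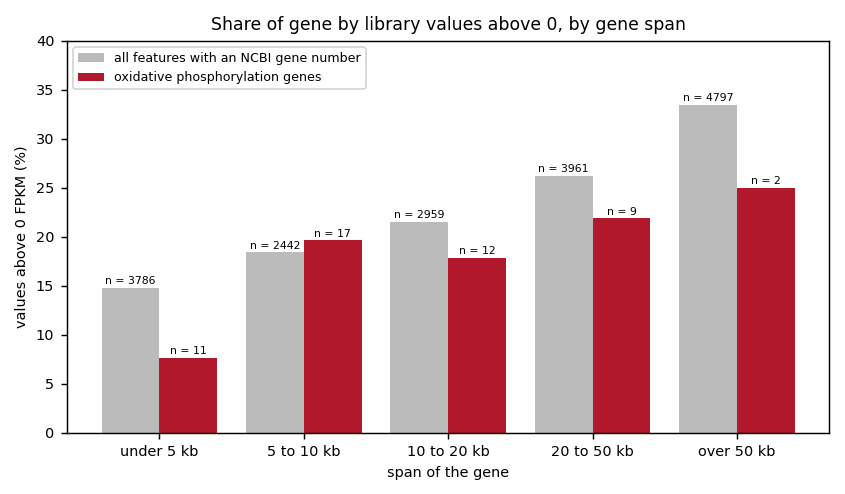
Percent of gene by library values above 0 FPKM (vertical axis) in 5 classes of gene span (horizontal axis) for all features with an NCBI gene number (grey) and for the oxidative phosphorylation genes (red), with the number of genes above each bar. The grey bars rise from 14.8% to 33.4% with span, and the red bar is higher than the grey one in the class of 5 to 10 kb only.

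Every library in which ribosomal protein genes were broadly seen also had ATP5B above 0. In 8 libraries (HLG-5, HLG-10, LLG-9, HMG-10, LMG-9, HSG-10, LSG-9 and LSG-10) between 61.25% and 76.25% of the ribosomal protein genes were above 0, and in the other 22 at most 35%. These 8 came from all 6 groups, with 2 each from HLG and LSG. ATP5B was above 0 in all 8 of them and in 3 others (LLG-8, LLG-10 and LMG-10). Of the 8, ATP5A1 was above 0 in 7, NDUFV2 in 7, ATP5G3 in 6, SDHD in 4 and ATP5S in 3. Among the other members that passed the filter, NDUFB2 and ATP5L were above 0 in 5 and NDUFS1 and NDUFA5 in 4. NDUFAF4 was above 0 in 3 of the 8, and NDUFAF2 and ATP5SL in 1. The share of NCBI features above 0 in these 8 libraries ran from 9.99% (HLG-5) to 46.3% (LMG-9). The values stayed low there, as ATP5B did not exceed 0.20 FPKM in these 8. This is a description of genes chosen after their values were seen, and no test was made.

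High and low fertility were compared at each follicle size with limma on log2(FPKM + 1) over the 6058 features that passed the filter, and p-values were adjusted over all of them by the method of Benjamini and Hochberg. The members tested were NDUFV2, NDUFS1, NDUFB2, NDUFA5, NDUFAF4, NDUFAF2, SDHD, ATP5A1, ATP5L, ATP5S and ATP5SL, and the other 40 were over 0.5 FPKM in fewer than 5 libraries. Some of these 11 passed through the groups where they were high, so they are not a sample of the 51. In large follicles 0 of 11 members and 0 of 6058 features (0%) were called in HLG against LLG, in medium follicles 0 and 0 (0%) in HMG against LMG, and in small follicles 0 and 0 (0%) in HSG against LSG. Averaged over sizes it was also 0 and 0 (0%), and for the fertility by size interaction 0 and 0 (0%).

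At an unadjusted p under 0.05 there were 2 members in HLG against LLG, where 291 of all features (4.80%) passed. They were ATP5L, at a log2 fold change of -1.75 ± 0.69 (SE, limma adjusted p = 0.976), and ATP5SL, at 1.39 ± 0.56 (limma adjusted p = 0.976). ATP5L rests on LLG-5 and LLG-8 and was at -0.74 without LLG-5. ATP5SL rests on HLG-5 and HLG-8, the only HLG libraries with a value, and without either of them it no longer passed the filter. In HMG against LMG there were 2 members, where 312 features (5.15%) passed, ATP5S at 1.40 ± 0.53 (limma adjusted p = 0.798) and ATP5A1 at 1.53 ± 0.62 (limma adjusted p = 0.816). Both genes had their highest value in HMG-8, and without it they were at 0.82 and 0.72. Since HMG-8 had 3 members above 0, these 2 and NDUFS1 at 0.05 FPKM, most of its signal lay in both genes.

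In HSG against LSG 0 members were at an unadjusted p under 0.05 (387 features, 6.39%). The lowest p was that of NDUFAF4, at 0.58 ± 0.52 (limma adjusted p = 0.929), and its direction turned to -0.028 without HSG-9. Averaged over sizes ATP5L was at -0.89 ± 0.40 (limma adjusted p = 0.952), 1 member beside 239 features (3.95%), and at -0.56 without LLG-5. In the interaction 0 members beside 283 features (4.67%) were at an unadjusted p under 0.05, and ATP5S had the lowest p (limma adjusted p = 0.895). At large, medium and small size the median log2 fold change (high against low fertility) of the 11 members was 0.40, -0.35 and -0.14, and that of all 6058 features was 0.10, -0.07 and -0.09. The members' medians rest on single libraries, since the first was 0 without HLG-9, the second -0.15 without HMG-8 and the third 0.14, in the other direction, without LSG-5.

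Between follicle sizes, averaged over fertility, limma called 0 members in large against small (0 features, 0%), 0 in medium against small (1 feature, 0.0165%) and 0 in large against medium (0 features, 0%). At an unadjusted p under 0.05 there were 0 members beside 510 features (8.42%) in large against small and 0 beside 311 (5.13%) in medium against small. In the former the lowest p was that of ATP5L, at 0.83 ± 0.49 (limma adjusted p = 0.607), and without LLG-5 its value was 0.32. In the latter it was that of ATP5A1, at 0.89 ± 0.44 (limma adjusted p = 0.938), and without HMG-8 it was 0.49.

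In large against medium 2 members were at an unadjusted p under 0.05, beside 698 features (11.5%). ATP5S was at -1.07 ± 0.37 (limma adjusted p = 0.347) and ATP5A1 at -1.14 ± 0.44 (limma adjusted p = 0.378), both lower in large follicles. SDHD was at -0.75 ± 0.38 and NDUFAF4 at -0.70 ± 0.37, with limma adjusted p-values of 0.438 and 0.448, and neither was under 0.05 before adjustment. The median of the 11 members was -0.25, that of all 6058 features also -0.25, and quantile normalization moved them to -0.18 and -0.08. Without HLG-9 the median of the members was -0.40. Without HMG-8 ATP5A1 was at -0.74, which is over 1.5 times smaller, and ATP5S at -0.78.

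The pattern of ATP5S was also examined by the number of libraries above 0. With 0 of 10 large and 8 of 10 medium follicle libraries above 0, Fisher's exact test gave a two-sided p of 0.000714, which was 0.346 after adjustment over all 20125 features. In the same comparison 1241 features (6.17%) were at an unadjusted p under 0.05 and 0 (0%) were called, and ATP5S was the only one of the 51 members under 0.05. In the other comparisons 0 members were under 0.05 by this test. Between the fertility classes 0.303% of features were under 0.05 for large, 1.49% for medium and 0.626% for small follicles. With the libraries of all sizes pooled it was 0.85%. Between sizes it was 1.66% in large against small and 0.979% in medium against small, and 0% of features were called in each comparison. Large follicle libraries had fewer features above 0 in general, as the shares of 17.8% and 10.3% in HLG and LLG against 26.7% and 38.8% in HMG and LMG show. The part of this in the result of ATP5S was not tested.

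**Figure D5:**
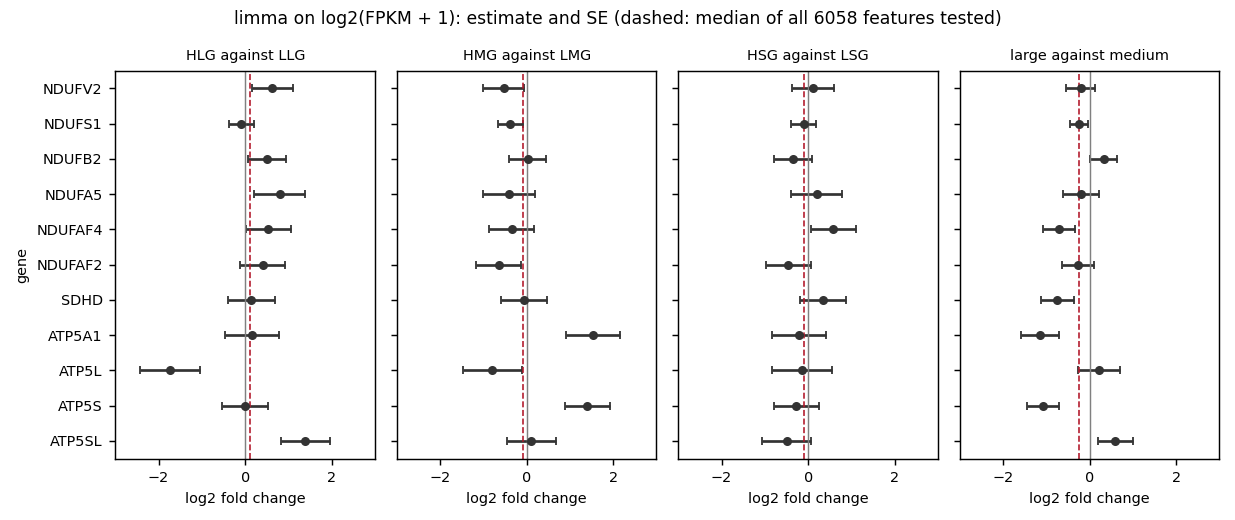
Log2 fold change on the log2(FPKM + 1) scale with its SE (horizontal axis) for the 11 members that could be tested (vertical axis), in high against low fertility at each follicle size and in large against medium follicles, with a dashed line at the median of all features tested. ATP5S and ATP5A1 lie to the right in HMG against LMG and to the left in large against medium, and 0 of the 11 were called in each of the 4 comparisons after adjustment.

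Other genes of mitochondrial energy use were examined as lists. Of 57 other genes of oxidative phosphorylation (assembly factors, ubiquinone synthesis and electron entry), 29 were in the table and were above 0 in a median of 4 libraries, as the members were. Regulators of mitochondrial genes had 16 of 17 genes in the table, with a median of 12.5 libraries and a median span of 23554 bp against 8867 bp of the members, and the difference in libraries was not tested. PPARGC1A, a coactivator of mitochondrial biogenesis, was above 0 in 22 libraries and PPARGC1B in 20. NRF1, which binds promoters of many respiratory genes, was above 0 in 19. TFAM, which packs mitochondrial DNA and helps to start its transcription, was above 0 in 17. All 19 genes of the citric acid cycle and pyruvate entry were in the table, with a median of 8 libraries, and PDHA1, a subunit of pyruvate dehydrogenase, was above 0 in 17. For glycolysis 18 of 21 genes were in the table, with a median of 7.5 libraries, and SLC16A1, a carrier of lactate and pyruvate, was above 0 in 22. The median span was 24762 bp in the citric acid cycle list and 16148 bp in the glycolysis list, both longer than that of the members. All NCBI features had a median of 5 libraries, and the differences between lists were not tested. In these 4 lists 4, 8, 5 and 4 genes were tested, and limma called 0 of them in each of the 8 contrasts. At an unadjusted p under 0.05 limma gave COQ5 (ubiquinone synthesis) in HMG against LMG, where 5.15% of all features passed, and HIGD1A in large against small (8.42%). It also gave PDHX (pyruvate dehydrogenase) in HLG against LLG (4.80%) and in the interaction (4.67%), and PDHA1 for fertility averaged over sizes (3.95%). The adjusted p-values of limma were from 0.578 to 0.976, and no other gene of the 4 lists was under 0.05 in the 8 contrasts.

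HLG-5 stood apart in its high values. It held 9 members above 0 with a sum of 80.67 FPKM, of which NDUFS4, ATP5SL and NDUFA4L2 made up most, at 47.72, 18.67 and 13.06 FPKM. In the same library the glycolysis genes summed to 105.56 FPKM, with ENO1 (enolase) at 48.76, ALDOA (aldolase) at 31.28 and PKM (pyruvate kinase) at 23.74 FPKM, and OGDH, a citric acid cycle enzyme, was at 31.95 FPKM. These were the highest values of all 4 genes in the 30 libraries. High values in HLG-5 were not limited to energy genes. Its ribosomal protein genes summed to 562.64 FPKM, the highest such sum of the 30 libraries, and only 1974 of its features were above 0. In HSG-5, where 0 members were above 0, SDHAF3, which helps to assemble complex II, was at 119.71 FPKM and IDH3G, a citric acid cycle enzyme subunit, at 33.16 FPKM. HLG-5 and HSG-5 are among the 4 libraries, with LLG-5 and LLG-7, that the study's list of mapped reads does not contain.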

How the data were processed

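The authors deposited FPKM values with 2 decimals for 20125 features in 30 libraries of granulosa cells. Per the methods of the study, ribosomal RNA was removed, uniquely matched reads were kept, duplicates were removed with picard and FPKM were computed with Cufflinks on an Ensembl annotation. The aligner and the build are not given in the sources used here, and read totals were not used. Unique matching can lower genes with near-identical copies elsewhere in the genome, and short transcripts give few fragments.

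Of the features, 17946 carried an NCBI gene number and 17945 of these were matched to symbols and spans of the RefSeq annotation of ARS1.2, of which no coordinates are printed. By span, 12 of the 51 members overlap another gene there, and their values are uncertain. All 30 columns were mapped to a library by name, and no 2 libraries held identical values. The members and gene lists were chosen with earlier results of these data known. The values of 1 member, which is part of all counts, are not reported here.

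Values were tested as log2(FPKM + 1) with limma 3.58.1 (R 4.3.3), fitting the 6 groups together with a trended prior estimated robustly, over features above 0.5 FPKM in at least 5 libraries (6058), with Benjamini-Hochberg adjustment, a threshold of 0.05 and two-sided p-values. The log2(FPKM + 1) scale understates changes of low genes. Contrasts were fertility at each size and averaged, pairs of sizes, and the interaction. Alternatives were another pseudocount, other filters, only the groups compared, a replicate block, quantile normalization, sample quality weights, Fisher's exact test on libraries above 0, other limits of detection and leaving out libraries. Named were all members that passed the filter, the members of each complex above 0 in the most libraries, complex II, the lowest p of each contrast, the highest values and members above 0 in 1 library. Lists of other oxidative phosphorylation genes, regulators, citric acid cycle, glycolysis and cell type markers were used as well. A planned description of promoter motifs, coding lengths and protein identity needs sequences and was not made.

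On simulated data for HMG against LMG with 6058 features, 189 of 200 features (94.5%) shifted by 3 on smooth log2 values were called. When the real values of 200 features were multiplied by 16 in HMG or in LMG, 16 (8%) or 63 (31.5%) were called. Multiplying leaves libraries without a value unchanged, so the change tested was smaller than 16-fold. The median log2 fold change found was 1.163 or -1.989. Of the features left unchanged, 4 or 10 were called as well, and 7 in the smooth data. Many raises of this kind would thus be missed at this sparsity. The features were among the 6058 tested, so members that did not pass the filter are not covered. The labels do not say what the library numbers mark, and the numbers were not taken as pairs. Python 3.11.15, pandas 2.3.3, numpy 2.4.6, scipy 1.17.1 and matplotlib 3.10.9 were used for the other steps.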

Additional observations from a re-analysis of the deposited data

Results flagged for a closer look

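In 18 sets of 5 libraries (3 quantities in 6 groups) the library farthest from the others was sought by Dixon's criterion, and 4 sets stood out. For independent and normally distributed values chance would flag 1 set in 20, here 0.9. The sums here often rest on single genes and the 3 quantities share libraries, so 4 beside 0.9 does not measure an excess over chance. The quantities were the number of members above 0, the number at 1 FPKM or more and their summed FPKM. Single genes were not searched, because a group with 1 library above 0 always stands out.

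The summed FPKM of the oxidative phosphorylation genes was 80.67 in HLG-5, against 2.91 to 23.09 in the other HLG libraries, and NDUFS4 made up 59.2% of it. In LLG-5 the sum was 56.1, all of it from ATP5L, against 0 to 15.29 in the other LLG libraries. In LSG-8 the sum was 36.47, of which ATP5J made up 57.4%, against 9.39 to 14.4 in the other LSG libraries. In HSG-5 the number of members at 1 FPKM or more was 0, whereas the other 4 HSG libraries had 3 each. HLG-5, LLG-5 and HSG-5 are absent from the study's list of mapped reads.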

How the results depend on the processing

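No member was called by limma or by Fisher's exact test in any contrast under the alternatives tried, and the lowest adjusted p of a member was 0.102 (ATP5S, large against medium, with sample quality weights). Of the values of named members under the alternatives 388 kept their direction and side of the threshold, 3 were differences of 0 in the share of libraries above 0 by Fisher's exact test (ATP5S in HMG against LMG, NDUFAF4 in HSG against LSG, ATP5L in large against small), and 1 turned, NDUFAF4 in HSG against LSG, at -0.028 without HSG-9 (range -0.028 to 0.73 when single libraries were left out). These values cover only settings in which the member was tested. ATP5SL did not pass the filter without HLG-5, HLG-8, HMG-9, LMG-10 or LSG-7, nor without the 4 libraries that the study's list of mapped reads lacks. NDUFAF4 did not pass the filter of a mean of 1 FPKM. The number of features called over the whole table was small and moved. It was 1 in HLG against LLG and in HMG against LMG and 12 in large against medium with sample quality weights, 1 in HLG against LLG without the 4 libraries that the study's list of mapped reads lacks, 1 in large against small and 5 in large against medium with a pseudocount of 0.1, 1 and 3 in these comparisons when the filter was a mean of 1 FPKM, and 1 in large against medium after quantile normalization. The single call in medium against small became 0 without a filter, with only the groups compared, with sample quality weights, by Fisher's exact test, without those 4 libraries and, in a setting chosen after seeing the data, without LLG-7 and HSG-5, which had the fewest features above 0. With a replicate block it also became 0, and the block changed no other call. Libraries of the same number correlated from -0.034 to 0.124 in their deviations from the group means (75 pairs, 1 over 0.1), 7 of 30 libraries correlated best with their own number, and the numbers were not taken as pairs. Whether libraries of the same number share goats or a batch is not known, and correlations in values this sparse cannot decide it.

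Leaving out single libraries gave 0 to 2 calls in HMG against LMG (2 without LMG-5, 1 without HMG-5, HMG-8, LMG-10 or HSG-8), 0 to 1 in HSG against LSG (1 without LSG-5), 0 to 2 in large against small (2 without HLG-10 or LLG-8, 1 without HSG-8) and 0 to 4 in large against medium (4 without LLG-8, 2 without HMG-8, 1 without HLG-9, HLG-10, LMG-9 or LSG-10). In medium against small it gave 0 to 2, with 2 without LMG-9, 1 without HLG-9, LLG-8, HMG-8 or LSG-10 and 0 without any of the other 25. Quantile normalization moved the median log2 fold change of all features from -0.25 to -0.08 in large against medium and from -0.19 to -0.07 in large against small.

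The number of members per library depends on the limit of detection. At 10 FPKM or more the means of HLG, LLG, HMG, LMG, HSG and LSG were 0.8, 0.2, 0.6, 0.2, 0.4 and 0.2 members. In the same order they were 3, 0.6, 4.2, 4, 2.4 and 3.6 at 1 FPKM or more, and 3.6, 1.2, 6.4, 6.6, 3.8 and 4.6 at 0.5 FPKM or more, so the lead of LMG over HMG in members above 0 rests on low values. Why the counts of features called moved was not tested. Read totals were not used here, so a member listed at 0 cannot be given an upper limit.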

Other observations

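Genes of granulosa cells and of other cell types were at 0 in most libraries. Of the values of granulosa genes 17.8% were above 0, beside 24.2% for endothelial, 23.3% for theca, 16.7% for erythroid, 14.2% for immune and 8.67% for oocyte genes. Over all NCBI features the share was 23.9%. The median span was 14715 bp for granulosa, 56832 bp for endothelial and 7718 bp for theca genes, and the differences in share were not tested. The summed FPKM of the 5 oocyte genes in the table was at most 0.36 in HLG, 0 in LLG, 6.93 in HMG, 2.34 in LMG, 8.12 in HSG and 10.16 in LSG, and GDF9, an oocyte growth factor, was above 0 in 6 libraries. STAR, the 1 theca gene in the table, was above 0 in 7 libraries, ALAS2, the 1 erythroid gene, in 5, the immune gene CD14 in 8 and the endothelial gene KDR in 14. The summed FPKM of granulosa genes was highest in HSG-5, at 65.58, where LHCGR, the receptor of luteinizing hormone, was at 38.74 FPKM and INHBA at 26.84 FPKM, while 0 members were above 0.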
